A study of Mus musculus with 54 samples.

Results

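Clone A is a line grown from a single sorted cell of 4T1, a mouse mammary carcinoma line that forms tumors in the mammary gland and spreads to the lung. It gave 2 of the 54 RNA-seq libraries of the study, lettered A and B. It was chosen by its label alone and set against the 44 libraries of the other 22 clones, which were grown from single 4T1 cells in the same way. Clone A is labelled Non-Intravasating, as are 20 of the other clones, whereas clones E and T are labelled Intravasating, meaning that their cells entered the blood in a test run on pooled clones. The labels name one culture medium and no treatment or engineered allele for any of these 23 clones. The remaining 4 samples were 2 orthotopic tumors and 2 lung metastases, with 2 libraries each, and they were used here only to look up levels. Clone A descends from 1 cell, so every value below describes this line. Whether libraries A and B of a clone were made from different cultures is not stated, and p-values over libraries therefore measure only their spread, which may be technical.

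Carcinoma cells can keep an epithelial state or move toward a mesenchymal one. In the epithelial state, E-cadherin, claudins and desmosomal cadherins hold neighbouring cells together, and the splicing factors Esrp1 and Esrp2 keep epithelial forms of many transcripts. In the mesenchymal state, vimentin, fibronectin and S100a4 are abundant, and repressors such as Snai1, Snai2, Zeb1 and Zeb2 bind E-box sequences in the promoters of epithelial genes. 4T1 cells are known to carry features of both states.

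The libraries of clone A held 15077197 and 14961468 reads assigned to genes, against 8849257 to 31609870 in the libraries of the other clones. A read was found for 14823 and 14399 genes in clone A and for 14130 to 16807 genes in the others. The libraries of clone A correlated at 0.992 across genes, within the 0.990 to 0.997 of the other clones, and differed from each other beyond sampling noise, as those of every clone did. Levels are given as normalized counts, which were recovered from the deposited variance-stabilised log2 values and are not divided by gene length, so they compare clones and not genes. A level of another clone is the mean of its 2 libraries. Differences are clone A minus the mean of the other 22 clones on the deposited log2 scale, which is compressed for low genes. Because RNA was taken from bulk cultures, fewer cells that make a transcript and less of it per cell cannot be told apart.

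The size of the difference was first measured against the spread among clones. With 1 value per clone, 20 of 13637 genes (0.147%) lay outside that spread at a limma adjusted p under 0.05, with 15 higher in clone A (0.11%) and 5 lower (0.0367%). Clone A enters this test as 1 value and is assumed to vary like the others, and 895 genes had an unadjusted p under 0.05. An exact two-sided permutation test of 1 clone against 22 cannot go below p = 0.0870. Where log2(normalized count + 1) replaced the deposited scale, 11 genes were called, 2 higher and 9 lower, and 7 of them were among the 20. On that same log scale with the reads also scaled by a trimmed mean, 12 genes were called, 3 higher and 9 lower, with 8 among the 20.

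Against the spread between libraries of a clone, 5950 genes (43.6%) differed from the mean of the other 22 clones, 2969 higher (21.8%) and 2981 lower (21.9%). Of these, 369 higher and 237 lower genes differed by at least 1. Without library B of clone A the total was 3867, and without library A it was 4854. This second test asks whether clone A differs from the average clone and not whether it is unusual among clones. By rank alone, both libraries of clone A lay above all 44 other libraries for 280 genes (2.05%) and below all 44 for 190 (1.39%), together 470 genes (3.45%). The median absolute difference over all genes was 0.215, which placed clone A 11th of the 23 clones when each was set against the other 22, between 0.296 for clone G and 0.145 for clone R. Set against single clones, clone A differed in the fewest genes from clone R (4095) and clone L (4284), and in the most from clone G (6990) and clone S (7042).

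The genes that hold epithelial cells together were higher in clone A. Of 40 tested genes of epithelial junctions and identity, 35 were higher at the library test and 0 were lower, where the shares over all genes were 21.8% and 21.9%. Their median difference was 1.18, against -0.01 over all genes, and 16 of the 40 lay above all 44 other libraries in both libraries of clone A. With 1 value per clone none of the 40 passed. The mean of the list was 10.31 in clone A on the deposited log2 scale, above all the others, which lay between 7.53 in clone S and 10.09 in clone L with a median of 8.75. Clone L was the highest of the others for 19 of the 35 genes and clone M for 7.

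Among the tight junction claudins, Cldn7, Cldn4 and Cldn3 showed wide gaps, and that of Cldn7 was the largest of the list. Cldn7 had 3070.5 and 4128 normalized counts in the libraries of clone A, against 2.27 in clone G to 2316 in clone L with a median of 72.5 (difference 4.39 ± 0.14, limma adjusted p = 1.18e-22 at the library test and 0.543 with 1 value per clone). Cldn4 had 2689.6 and 3330.3 in clone A, against 2.42 in clone O to 1693 in clone L with a median of 126 (3.85 ± 0.14, limma adjusted p = 1.18e-21 at the library test and 0.631 with 1 value per clone). Cldn3 had 3345 and 3829 in clone A, against 2.95 in clone S to 2489.6 in clone L with a median of 236 (3.65 ± 0.17, limma adjusted p = 2.55e-18 at the library test and 0.608 with 1 value per clone). For all 3 claudins both libraries of clone A lay above every other clone, and clone L came next. Cldn1 did not follow them, with 6.44 and 4.46 in clone A against a median of 3.19 (-0.04 ± 0.13, limma adjusted p = 0.838 at the library test).

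Genes of epithelial splicing and sorting were high as well. Esrp1 had 4257 and 5175 normalized counts in clone A, against 2.8 in clone O to 4955 in clone J with a median of 56.3 (4.37 ± 0.09, limma adjusted p = 1.28e-27 at the library test and 0.79 with 1 value per clone). Rab25, a small GTPase of recycling endosomes in epithelia, had 996 and 1262 in clone A, against 2.8 in clone O to 766 in clone L with a median of 10.2 (3.80 ± 0.14, limma adjusted p = 2.52e-21 at the library test and 0.307 with 1 value per clone). Ap1m2, a subunit of the adaptor that sorts cargo to the basolateral membrane, had 256 and 401 in clone A, against 0 in clone B to 391 in clone J with a median of 3.46 (2.70 ± 0.13, limma adjusted p = 1.94e-18 at the library test and 0.527 with 1 value per clone). Clone A and clone J overlapped for Esrp1 and Ap1m2, whereas Rab25 was highest in clone A. Esrp2 was higher by less, at 485 and 499 in clone A against a median of 187 (1.10 ± 0.10, limma adjusted p = 3.11e-11 at the library test).

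Adhesion genes and keratins went the same way with smaller gaps. The adhesion molecule Epcam had 17141 and 16423 normalized counts in clone A, against 151 in clone S to 13993 in clone L with a median of 2439 (2.67 ± 0.13, limma adjusted p = 1.72e-17 at the library test). Krt19 had 3374 and 4747 in clone A, against 112 in clone W to 1834 in clone L with a median of 837 (2.36 ± 0.11, limma adjusted p = 4.40e-18 at the library test). Both lay above every other clone in clone A. E-cadherin, Cdh1, had 17374 and 18784 in clone A, against 217 in clone O to 24203 in clone L with a median of 8648 (1.61 ± 0.11, limma adjusted p = 7.70e-14 at the library test), and 3 other clones were above it. The desmosomal cadherin Dsc2 had 318 and 292 in clone A, against 0 in clone O to 188 in clone L with a median of 23.4 (2.26 ± 0.11, limma adjusted p = 2.44e-18 at the library test). Plakoglobin, Jup, which links cadherins to the cytoskeleton, had 3409 and 3868 in clone A, against 672 in clone Q to 2696 in clone M with a median of 1200.1 (1.49 ± 0.09, limma adjusted p = 8.77e-16 at the library test). Among the transcription factors of the epithelial state, Grhl2 differed by 1.22 ± 0.08, limma adjusted p = 3.23e-14, Ovol2 by 1.15 ± 0.10, limma adjusted p = 1.77e-11 and Elf3 by 1.00 ± 0.10, limma adjusted p = 2.88e-10 at the library test. The members that passed neither test were Grhl1, Spint2, Tjp3, Tjp1 and Cldn1. Tjp1, the tight junction scaffold ZO-1, stood at 4860.0 and 4270.4 in clone A against a median of 4636.

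**Figure D1:**
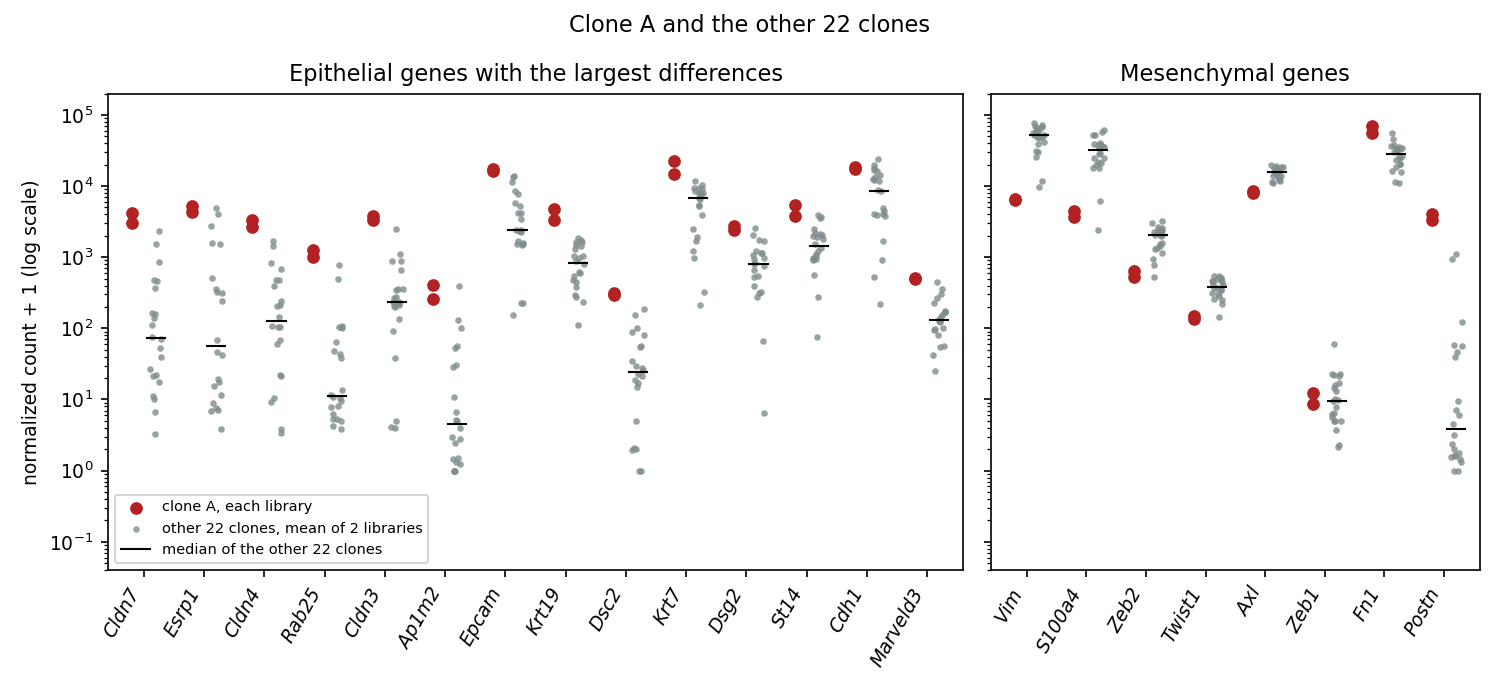
Normalized count + 1 on a log axis for the 14 epithelial genes with the largest differences and for 8 mesenchymal genes, with the 2 libraries of clone A as red points, the other 22 clones as grey points (mean of 2 libraries) and their median as a black line. Clone A is at or near the top for the epithelial genes, below the median for Vim, S100a4, Zeb2, Twist1 and Axl, among the others for Zeb1, and at the top for Fn1 and Postn.

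Promoters are shown for the 5 epithelial genes with the widest gaps among the 24 that have one listed, because these genes were all higher in clone A and because the E-box CAGGTG, on the other strand CACCTG, is the sequence that Snail and Zeb repressors are known to bind. Sequences are from RefSeq, build GRCm38.p6, from 250 bases before to 50 bases after the start of the transcript, written 5′ to 3′ on the gene's strand, with each E-box in capitals. Of all 32851 promoters in that table, 20.21% held at least 1 E-box of these letters. Of the 29 promoters listed for 24 of the 40 epithelial genes, 21 (72.41%) did. Cldn7 lies at chr11:69964529-69964828 on the plus strand, Cldn4 at chr5:134946885-134947184 on the minus strand, Rab25 at chr3:88548230-88548529 on the minus strand, Cldn3 at chr5:134985964-134986263 on the plus strand and Ap1m2 at chr9:21312284-21312583 on the minus strand. Postn, at chr3:54359017-54359316 on the plus strand, is shown beside them as the mesenchymal gene with the largest difference.
Cldn7: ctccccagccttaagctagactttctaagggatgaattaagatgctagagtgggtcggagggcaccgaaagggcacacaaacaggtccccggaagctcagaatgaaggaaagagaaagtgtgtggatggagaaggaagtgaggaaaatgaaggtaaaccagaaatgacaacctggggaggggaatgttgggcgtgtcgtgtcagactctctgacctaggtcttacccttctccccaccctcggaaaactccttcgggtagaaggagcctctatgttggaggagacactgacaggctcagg
Cldn4: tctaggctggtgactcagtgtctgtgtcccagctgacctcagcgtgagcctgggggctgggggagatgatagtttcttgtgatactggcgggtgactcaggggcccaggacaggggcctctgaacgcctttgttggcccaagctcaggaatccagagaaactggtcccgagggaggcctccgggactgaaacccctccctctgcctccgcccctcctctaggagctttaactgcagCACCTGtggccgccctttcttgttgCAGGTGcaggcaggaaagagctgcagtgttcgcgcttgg
Rab25: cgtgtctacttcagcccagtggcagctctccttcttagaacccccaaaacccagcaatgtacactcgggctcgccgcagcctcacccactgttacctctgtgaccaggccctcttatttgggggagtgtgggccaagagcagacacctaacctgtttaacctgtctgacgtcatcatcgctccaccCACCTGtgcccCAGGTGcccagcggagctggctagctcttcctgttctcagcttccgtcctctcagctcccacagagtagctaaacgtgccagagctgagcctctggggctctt
Cldn3: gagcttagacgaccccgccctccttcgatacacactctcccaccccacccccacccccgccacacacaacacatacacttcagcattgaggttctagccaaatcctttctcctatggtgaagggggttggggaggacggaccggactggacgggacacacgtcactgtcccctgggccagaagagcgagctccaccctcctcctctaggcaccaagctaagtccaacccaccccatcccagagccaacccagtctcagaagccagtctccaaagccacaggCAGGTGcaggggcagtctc
Ap1m2: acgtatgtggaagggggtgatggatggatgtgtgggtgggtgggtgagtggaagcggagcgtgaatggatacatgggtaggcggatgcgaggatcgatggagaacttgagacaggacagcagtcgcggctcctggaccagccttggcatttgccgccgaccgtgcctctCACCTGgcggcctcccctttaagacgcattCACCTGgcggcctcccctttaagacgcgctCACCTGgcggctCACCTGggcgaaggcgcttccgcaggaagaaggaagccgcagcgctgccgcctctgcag
Postn: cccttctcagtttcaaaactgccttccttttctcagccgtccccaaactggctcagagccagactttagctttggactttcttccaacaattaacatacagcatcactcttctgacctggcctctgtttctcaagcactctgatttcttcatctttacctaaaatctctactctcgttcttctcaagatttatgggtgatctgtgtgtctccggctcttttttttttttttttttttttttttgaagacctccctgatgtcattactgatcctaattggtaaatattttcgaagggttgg

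The letters matched 2 times in the Cldn4 window, 2 times in that of Rab25, 1 time in that of Cldn3 and 4 times in that of Ap1m2. The Cldn7 and Postn windows shown held 0, and 1 of the 2 promoters listed for Cldn7 held a match, against 0 of the 2 listed for Postn. A match is a description of the letters and says nothing about binding in these cells.

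Mesenchymal genes were more often lower than higher. Of 23 tested genes of the mesenchymal state, 10 were lower in clone A at the library test and 3 were higher, with a median difference of -0.18. Over all genes 21.9% were lower and 21.8% higher, so that only the share of lower ones was above the background. None of the 23 passed with 1 value per clone. The mean of the list was 8.49 on the deposited log2 scale in clone A, and 18 of the other clones lay above it, from a lowest of 8.37 in clone J to a highest of 8.84 in clone N.

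The intermediate filament vimentin, Vim, had 6486 and 6399 normalized counts in clone A, against 9566 in clone J to 77124 in clone D with a median of 52466 (-2.77 ± 0.12, limma adjusted p = 5.59e-19 at the library test and 0.227 with 1 value per clone). S100a4, a calcium-binding protein linked to cell motility, had 4518 and 3648 in clone A, against 2407 in clone J to 61236 in clone D with a median of 31937 (-2.68 ± 0.17, limma adjusted p = 5.02e-15 at the library test). The repressor Zeb2 had 640.5 and 523 in clone A, against 521 in clone J to 3234 in clone O with a median of 2047 (-1.49 ± 0.12, limma adjusted p = 8.10e-12 at the library test). Vim was lower in clone A than in any other clone, and clone J was the lowest of the others for all 3 genes. Twist1 was lower at 133 and 150.4 in clone A against a median of 386 (-1.09 ± 0.12, limma adjusted p = 5.24e-09), and the receptor tyrosine kinase Axl at 8423 and 8034 against a median of 15807 (-0.89 ± 0.08, limma adjusted p = 2.79e-11), both at the library test. Among the other repressors, Zeb1 and Snai1 did not pass. Zeb1 had 7.51 and 11.1 in clone A against a median of 8.61 (-0.01 ± 0.12, limma adjusted p = 0.963 at the library test), and Snai1 had 78.3 and 81.3 against a median of 99.2 (-0.17 ± 0.13, limma adjusted p = 0.299 at the library test). Snai2 had 0 counts in both libraries of clone A, against a median of 0.583 and up to 68.1 in clone F (-0.32 ± 0.11, limma adjusted p = 0.0243 at the library test).

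The mesenchymal list also held the largest difference in the other direction. Postn encodes periostin, a secreted matrix protein, and had 4017 and 3311 normalized counts in clone A, against 0 in clone S to 1114 in clone L with a median of 2.82 (5.77 ± 0.10, limma adjusted p = 6.86e-30 at the library test and 0.14 with 1 value per clone). It lay above every other clone. Fibronectin, Fn1, had 69801 and 56443 in clone A, against 10976 in clone H to 56359.5 in clone M with a median of 28128 (1.27 ± 0.11, limma adjusted p = 1.12e-11 at the library test and 0.714 with 1 value per clone). The tropomyosin gene Tpm2 had 75.1 and 91.3 in clone A against a median of 18.1 (0.87 ± 0.10, limma adjusted p = 1.39e-08 at the library test). Periostin and fibronectin were thus high in the same libraries in which vimentin was low.

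**Figure D2:**
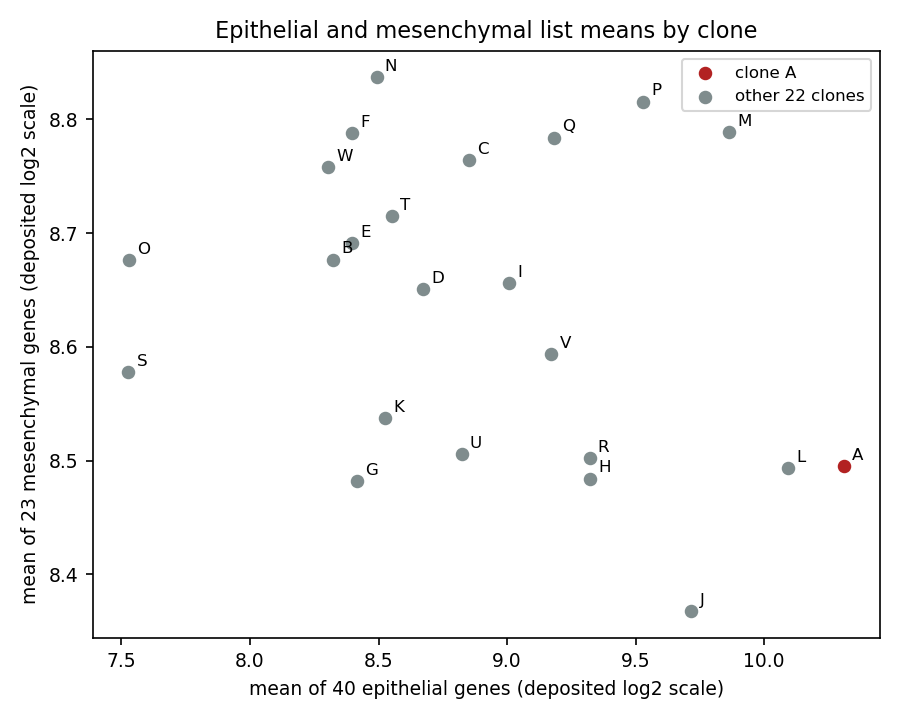
Mean of the 40 epithelial genes (horizontal) and of the 23 mesenchymal genes (vertical) on the deposited log2 scale, 1 point per clone, with clone A in red and the other 22 clones in grey. Clone A stands farthest to the right at 10.31, next to clone L at 10.09, and low on the vertical axis at 8.49.

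Basal and laminin genes showed wide gaps too. Of 12 tested, 6 were higher and 2 lower in clone A at the library test, and none passed with 1 value per clone. Over all genes 21.8% were higher and 21.9% lower, so that only the share of higher ones was above the background. The basal keratin Krt14 had 2996 and 4641 normalized counts in clone A, against 2.35 in clone S to 3908 in clone P with a median of 102 (4.09 ± 0.13, limma adjusted p = 8.14e-23 at the library test). The laminin chain genes Lama3 and Lamb3 were higher, by 2.65 ± 0.09, limma adjusted p = 1.57e-22 and by 2.34 ± 0.09, limma adjusted p = 1.68e-20 at the library test. The laminin receptor chain Itga6 was lower at 3491 and 3288 in clone A, against 4182 in clone N to 8893 in clone V with a median of 6917 (-0.98 ± 0.08, limma adjusted p = 5.87e-12 at the library test), whereas its partner Itgb4 was higher (0.93 ± 0.09, limma adjusted p = 8.24e-10). Of 17 integrin genes, 8 were higher (47.1%) and 4 lower (23.5%) at the library test, the share of lower ones being near the 21.9% over all genes. Itgb6, a partner of the alpha-v chain in epithelia, had 695 and 628 in clone A, against 1.15 in clone O to 579 in clone L with a median of 57 (2.51 ± 0.09, limma adjusted p = 2.38e-21 at the library test).

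The genes that set clone A apart from the whole spread of clones were of other kinds. Of the 15 higher genes at the test with 1 value per clone, 7 were named because they reached 50 normalized counts in clone A, and the list was filled to 15 in order of p with genes that passed the library test and lay above all 44 other libraries. Foxj1, the transcription factor of motile cilia, is on chromosome 11 from 116330704 to 116335499 (mm10). It had 246 and 368 normalized counts in clone A, against 1.08 in clone U to 82.2 in clone P with a median of 7.85 (2.60 ± 0.49, limma adjusted p = 0.015 with 1 value per clone, the SE here being that between clones). Dok2, an adaptor that binds activated tyrosine kinases, had 147 and 176 in clone A, against 2.62 in clone V to 38.6 in clone J with a median of 8.35 (1.97 ± 0.25, limma adjusted p = 0.000187). Clmn, a membrane protein with calponin homology domains, had 154 and 167 in clone A, against 0.914 in clone S to 37.1 in clone F with a median of 6.15 (2.08 ± 0.36, limma adjusted p = 0.012). In all 3 genes clone A stood clear of the highest of the others.

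Asb2, Hsd11b2, Smtnl2 and Fam171a2 also stood apart, at lower levels. Asb2, which brings substrates to an E3 ubiquitin ligase, had 54.7 and 46.8 normalized counts in clone A, against 0 in clone D to 8.88 in clone F with a median of 0.583 (1.50 ± 0.22, limma adjusted p = 0.00196 with 1 value per clone). Hsd11b2, the enzyme that inactivates glucocorticoids, had 69.7 and 62.4 in clone A, against 2.96 in clone B to 18.5 in clone P with a median of 6.59 (1.23 ± 0.19, limma adjusted p = 0.00251). Smtnl2 had 107 and 90.2 in clone A against a median of 13.3 (1.32 ± 0.25, limma adjusted p = 0.015), and Fam171a2 had 143 and 144 against a median of 32.4 (1.27 ± 0.23, limma adjusted p = 0.012). None of these 7 calls held on log2(normalized count + 1). With trimmed-mean scaling on that log scale, Dok2 alone narrowly kept its call. On log2(normalized count + 1) the differences were larger, from 2.18 for Fam171a2 to 4.84 for Asb2, and the limma adjusted p was 0.0533 for Dok2, 0.0612 for Asb2, 0.109 for Hsd11b2, 0.177 for Fam171a2, 0.343 for Smtnl2 and 0.379 for both Foxj1 and Clmn.

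Genes that filled the list lay above all 44 other libraries and did not pass with 1 value per clone. Wnt9a, a secreted Wnt ligand, had 249 and 319 normalized counts in clone A, against 7.89 in clone T to 123 in clone P with a median of 19 (2.16 ± 0.47, limma adjusted p = 0.0597 with 1 value per clone). Clusterin, Clu, an extracellular chaperone, had 10774 and 12273 in clone A, against 739.6 in clone S to 3923 in clone M with a median of 1825 (2.60 ± 0.59, limma adjusted p = 0.0801). Csf1r, the receptor for the growth factor Csf1, had 134 and 124 in clone A, against 2.68 in clone W to 60.2 in clone P with a median of 6.97 (1.75 ± 0.40, limma adjusted p = 0.0801). The others were the small GTPase Rac3, the nucleotide hydrolase Nudt18, the myosin phosphatase subunit Ppp1r12b, the anion transporter Slc26a9 and the aggrecan-cleaving protease Adamts4, with differences of 1.61, 1.21, 1.39, 1.98 and 1.82 and limma adjusted p between 0.0597 and 0.0801. Csf1 itself, the ligand of Csf1r, did not pass either test, at 3549 and 3507 in clone A against a median of 4076 (-0.10 ± 0.07, limma adjusted p = 0.261 at the library test).

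On the deposited scale fewer genes lay below the spread of clones than above it. The order was reversed on log2(normalized count + 1), with or without trimmed-mean scaling. Emp3, a membrane protein of the peripheral myelin protein family, is on chromosome 7 from 45918023 to 45921426 (mm10). It had 39.7 and 91.3 normalized counts in clone A, against 336 in clone L to 1353 in clone T with a median of 802 (-2.80 ± 0.50, limma adjusted p = 0.012 with 1 value per clone). Of the 11 genes named from that test, Emp3 was the one whose call held under each of the 6 alternatives tried for single genes in that test, with limma adjusted p of 0.00217 to 0.0342. Fzd7, a receptor for Wnt ligands, had 349 and 343 in clone A, against 727 in clone C to 1743 in clone K with a median of 1180.1 (-1.62 ± 0.33, limma adjusted p = 0.0372), with a limma adjusted p of 0.0738 against the 20 other non-intravasating clones alone. The DNA exonuclease Exo5 had 68.7 and 148 in clone A, against 259.9 in clone M to 559 in clone T with a median of 383 (-1.43 ± 0.28, limma adjusted p = 0.0218), and 0.128 without library A of clone A. The zinc finger gene Zfp715 had 112 and 71.3 in clone A, against 161 in clone M to 289 in clone J with a median of 225 (-0.94 ± 0.19, limma adjusted p = 0.0372), and did not pass without library B of clone A (0.170).

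A gene next to Emp3 was low as well, without passing the test with 1 value per clone. Ccdc114, a gene of the docking complex of ciliary dynein arms, is on chromosome 7 from 45923159 to 45948963, 1732 bases from Emp3 with 0 RefSeq genes between them. It had 4.29 and 4.46 normalized counts in clone A, against 12.5 in clone S to 116 in clone K with a median of 67.1 (-1.37 ± 0.30, limma adjusted p = 0.0695 with 1 value per clone). Emp3 and Ccdc114 do not overlap at these positions. The strand setting of the counting is not given in the sources used here, so reads of genes that do overlap could not be told apart. Ociad2 had 10.7 and 12.3 in clone A, against 129 in clone M to 678 in clone C with a median of 332 (-2.64 ± 0.56, limma adjusted p = 0.0535). The heparan sulfate proteoglycan Gpc4 had 1.07 and 12.3 in clone A, against 27 in clone H to 943 in clone V with a median of 374 (-3.14 ± 0.82, limma adjusted p = 0.187). On log2(normalized count + 1) Ociad2, Ccdc114 and Gpc4 passed, with limma adjusted p of 0.00217, 0.0102 and 0.0122. The endocytic adaptor Dab2 had 123 and 151 in clone A, against 372 in clone P to 2575 in clone W with a median of 1369.8 (-2.66 ± 0.69, limma adjusted p = 0.189). The chromatin protein Hmga2 had 2876 and 2047 in clone A, against 4296 in clone P to 14148 in clone B with a median of 8678 (-1.83 ± 0.47, limma adjusted p = 0.187). The remaining genes were the sialyltransferase St3gal4, Nipal1, the thiamine transporter Slc19a2, the selenoprotein Sepw1, Tmem126a and Prkrir, with differences of -1.49, -1.92, -1.10, -1.61, -0.79 and -0.93.

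**Figure D3:**
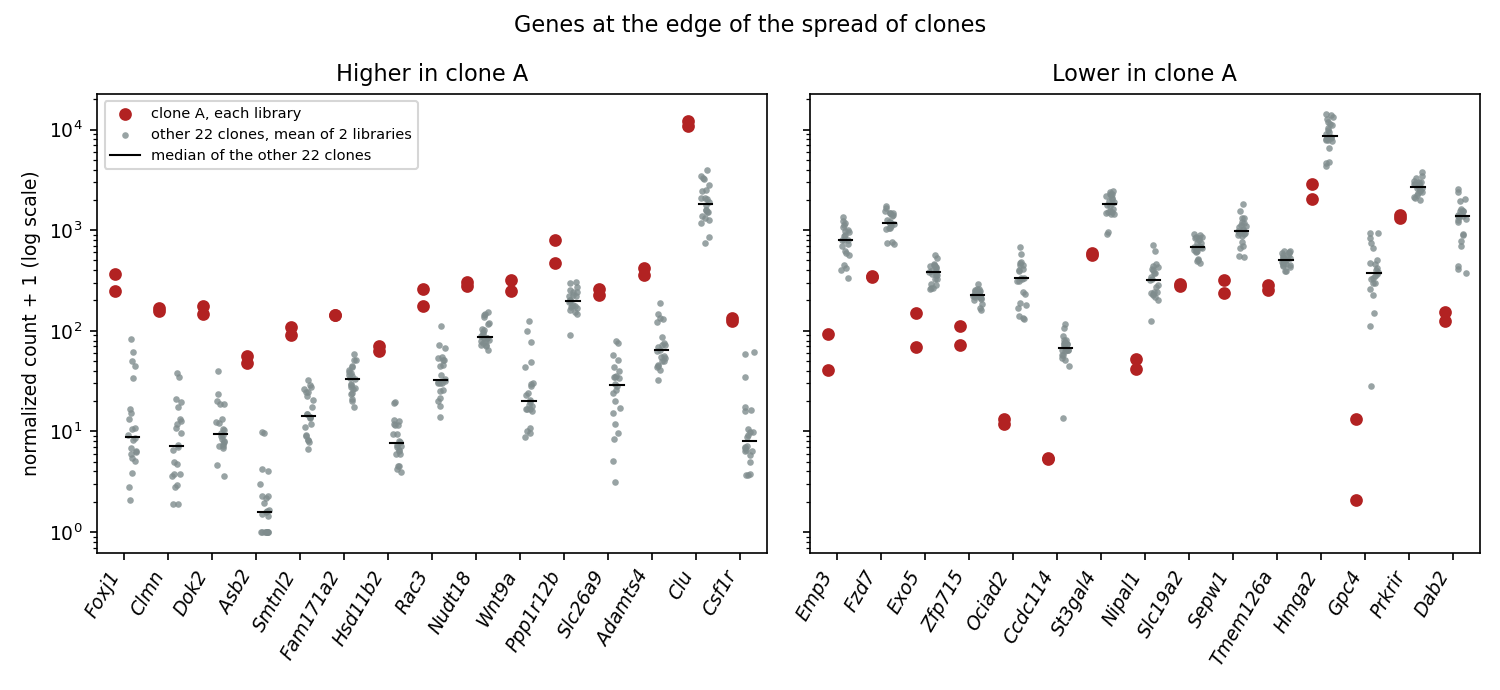
Normalized count + 1 on a log axis for the 15 higher (left) and 15 lower (right) genes named by rule, with the 2 libraries of clone A in red, the other 22 clones in grey (mean of 2 libraries) and their median as a black line. Every red point lies outside the grey points of its gene, from Foxj1 and Clu on the left to Emp3, Ociad2 and Gpc4 on the right.

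Of 29 tested Wnt and Notch genes, 16 were higher (55.2%) and 8 lower (27.6%) in clone A at the library test, where the shares over all genes were 21.8% and 21.9%, so that the lower share was near the background. Fzd7 alone passed with 1 value per clone. The Notch ligand Jag1 had 2779.7 and 2572 normalized counts in clone A, against 46.7 in clone S to 3801 in clone J with a median of 489 (2.42 ± 0.08, limma adjusted p = 1.12e-22 at the library test). Its relative Jag2 had 219.9 and 372 in clone A, against 2.74 in clone U to 276 in clone G with a median of 32 (1.92 ± 0.11, limma adjusted p = 2.04e-15), and the receptor Notch1 had 1466 and 1582, against 125 in clone G to 1405 in clone L with a median of 429 (1.52 ± 0.10, limma adjusted p = 4.29e-14). Ligands and 1 receptor of Notch were thus high together, whereas the Notch target Hey1 was lower at 3.22 and 4.46 in clone A against a median of 13.2 (-0.44 ± 0.11, limma adjusted p = 0.00112). Wnt10a had 239 and 239 in clone A, against 3.62 in clone U to 209 in clone G with a median of 38.2 (1.67 ± 0.11, limma adjusted p = 1.15e-14), and Wnt10b had 2.15 and 4.46 against a median of 50.2 (-1.03 ± 0.12, limma adjusted p = 1.73e-08). The Wnt receptor Fzd2 was above every other clone at 562 and 561 (1.20 ± 0.11, limma adjusted p = 7.25e-11), in contrast to Fzd7. The mean of the list was 8.38 in clone A on the deposited log2 scale, against 7.71 to 8.36 in the others.

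Of 40 receptor tyrosine kinase and ligand genes, 11 were higher (27.5%) and 15 lower (37.5%) at the library test. The share of higher ones was near the 21.8% over all genes, and the share of lower ones stood beside a background of 21.9%. Erbb3, a receptor for neuregulins, had 288 and 292 normalized counts in clone A, against 1.76 in clone O to 189.7 in clone M with a median of 29 (2.00 ± 0.12, limma adjusted p = 1.43e-15 at the library test). Its partner Erbb2 had 1339 and 1537 in clone A, against 431 in clone U to 1060.3 in clone L with a median of 604 (1.10 ± 0.08, limma adjusted p = 2.16e-13). The ligand Nrg1 was lower at 53.6 and 43.4 against a median of 168 (-1.07 ± 0.10, limma adjusted p = 5.36e-11). Kitl, the ligand of the receptor Kit, had 131 and 118 in clone A, against 192 in clone G to 1499.8 in clone W with a median of 694 (-1.96 ± 0.10, limma adjusted p = 4.55e-17). Erbb2 and Erbb3 lay above and Kitl below all 44 other libraries.

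Genes of the NRF2 antioxidant response were lower in clone A. NRF2 is a transcription factor that is freed under oxidative stress and raises genes of glutathione and quinone handling. Of 42 tested genes of this response and of detoxification, 24 were lower (57.1%) and 1 was higher (2.4%) at the library test. The shares over all genes were 21.9% and 21.8%. The median difference of the list was -0.36, and none of the 42 passed with 1 value per clone. Nqo1, a quinone reductase and a standard NRF2 target, had 6.44 and 4.46 normalized counts in clone A, against 49.2 in clone L to 873 in clone S with a median of 218 (-2.43 ± 0.11, limma adjusted p = 1.09e-18 at the library test and 0.307 with 1 value per clone). The metallothionein Mt2 had 109 and 164 in clone A, against 216 in clone G to 3019.6 in clone U with a median of 1274 (-2.78 ± 0.12, limma adjusted p = 4.41e-19 at the library test and 0.447 with 1 value per clone). Mt1 had 256 and 239 in clone A against a median of 1157 (-1.93 ± 0.17, limma adjusted p = 2.26e-11), and the sulfiredoxin gene Srxn1 had 438 and 516 against a median of 1124 (-1.13 ± 0.09, limma adjusted p = 2.34e-12), both at the library test. Nqo1 and Mt2 lay below all 44 other libraries. The member that was higher was glutathione synthetase, Gss (0.32 ± 0.12, limma adjusted p = 0.0339). Keap1, the inhibitor of NRF2, stood at 692 and 854 in clone A against a median of 832 (-0.14 ± 0.08, limma adjusted p = 0.125 at the library test). The mean of the list was 8.38 in clone A, with clone L lower at 8.37 and a median of 8.97 over the others.

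Lipid synthesis genes were higher on average, with list means inside the range of the clones. Of 24 cholesterol synthesis genes, 19 were higher (79.2%) and 0 lower at the library test, beside 21.8% and 21.9% over all genes. Their median difference was 0.43, and 8 other clones had a higher list mean. Fdps, which makes farnesyl diphosphate, had 2291 and 2307 normalized counts in clone A, against 110.5 in clone S to 4089 in clone U with a median of 1008 (1.13 ± 0.08, limma adjusted p = 1.86e-13 at the library test). The sterol-regulated transcription factor gene Srebf2 differed by 0.90 ± 0.08, limma adjusted p = 2.88e-11. Of 19 fatty acid synthesis genes, 12 were higher (63.2%) and 2 lower (10.5%), and 3 other clones had a higher list mean. The desaturase Fads2 had 1892 and 1890.1 in clone A, against 82.3 in clone S to 2154 in clone L with a median of 719 (1.26 ± 0.08, limma adjusted p = 2.48e-14), and the citrate lyase gene Acly, at 4911 and 5323, was above every other clone (0.64 ± 0.08, limma adjusted p = 5.94e-08).

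Cell cycle genes showed few and mostly downward differences. Of 40 proliferation genes, 12 were lower and 2 higher at the library test, beside a background of 21.9% lower and 21.8% higher. The list mean was 11.40 in clone A on the deposited log2 scale, below all the others, of which clone M was the lowest at 11.41 and the median was 11.62. The D-type cyclin Ccnd2 had 65.4 and 62.4 normalized counts in clone A, against 37.2 in clone O to 3555 in clone Q with a median of 2031 (-3.61 ± 0.11, limma adjusted p = 2.07e-23 at the library test). Ccnd1 had 20713 and 23452 in clone A, against 27517 in clone P to 75178 in clone F with a median of 48521 (-1.12 ± 0.09, limma adjusted p = 6.35e-12). The E2F family member E2f8 had 1843 and 2114 in clone A, against 2722 in clone L to 8450.2 in clone R with a median of 5716 (-1.36 ± 0.06, limma adjusted p = 1.55e-18). Ccnd1, E2f8 and the mitotic cyclin Ccnb1 lay below all 44 other libraries, and the proliferation marker Mki67 did not pass (-0.26 ± 0.18, limma adjusted p = 0.276).

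A set of genes best known from neurons was also low. Of 15 tested, 8 were lower (53.3%) and 1 higher (6.7%) at the library test, beside 21.9% and 21.8% over all genes. Their median difference was -0.36. The secreted neuronal pentraxin Nptx1 had 108 and 131 normalized counts in clone A, against 313 in clone L to 12582 in clone W with a median of 4355 (-4.03 ± 0.11, limma adjusted p = 7.64e-25 at the library test). The neurotrophin Bdnf had 40.8 and 54.6 in clone A, against 98.2 in clone L to 848 in clone O with a median of 379 (-2.13 ± 0.09, limma adjusted p = 4.37e-19). Nptx1, Bdnf, the synaptotagmin Syt7 and the glutamate receptor chain Grin2d lay below all 44 other libraries. The list mean of 6.43 in clone A was below all the others, of which clone L was the lowest at 6.57.

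Protease inhibitors were mostly lower, with 11 of 21 lower and 4 higher at the library test. Over all genes the shares were 21.9% and 21.8%, so that only the share of lower ones was above the background. Serpine2 and Slpi, the secreted inhibitors for which the study of these clones is known, were among the lower ones. Serpine2 had 133 and 104 normalized counts in clone A, against 19 in clone L to 9029.5 in clone F with a median of 1580.0 (-2.91 ± 0.12, limma adjusted p = 3.58e-20 at the library test and 0.889 with 1 value per clone). Slpi had 90.1 and 168 in clone A, against 26.7 in clone L to 10949 in clone D with a median of 1714 (-2.68 ± 0.17, limma adjusted p = 4.11e-15 at the library test and 0.916 with 1 value per clone). Clone A was not the lowest in either, since 20 of the other clones were above it for Serpine2 and 18 for Slpi. The epithelial serpin Serpinb5 went the other way at 534 and 486 in clone A, against 0.589 in clone W to 605 in clone L with a median of 30 (2.41 ± 0.12, limma adjusted p = 2.33e-17 at the library test). Plaur, the receptor for urokinase, was below every other clone at 1013 and 1231 against a median of 1917 (-0.75 ± 0.13, limma adjusted p = 1.06e-05).

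Oxygen-regulated and glycolytic genes were more often higher than lower, 18 (51.4%) against 3 (8.6%) of 35 at the library test. Over all genes the shares were 21.8% and 21.9%. P4ha2, a collagen prolyl hydroxylase, had 769 and 971 normalized counts in clone A, against 27.9 in clone V to 392 in clone L with a median of 222 (1.78 ± 0.09, limma adjusted p = 9.76e-18 at the library test). Egln3, a prolyl hydroxylase that marks hypoxia-inducible factors for decay and is itself induced by low oxygen, had 106 and 127 in clone A, against 267 in clone L to 4098 in clone D with a median of 1421 (-2.89 ± 0.08, limma adjusted p = 7.24e-24). P4ha2 lay above and Egln3 below all 44 other libraries. Interferon response genes were higher in 19 (48.7%) and lower in 4 (10.3%) of 39, with a median difference of 0.25. Their largest difference was that of Parp14, at 1056 and 945 in clone A, against 123 in clone J to 6913 in clone G with a median of 329.8 (1.22 ± 0.12, limma adjusted p = 3.53e-10). The mean of the interferon list was 8.01 in clone A on the deposited log2 scale, against a median of 7.55 in the others and 11.06 in clone G. The iron-siderophore carrier Lcn2 had 1307 and 1371 in clone A against a median of 54.1 and up to 39410.5 in clone G (2.76 ± 0.19, limma adjusted p = 5.39e-14). Inhba, the activin chain, had 7116 and 9832 in clone A against a median of 1997 (2.16 ± 0.17, limma adjusted p = 1.98e-12).

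**Figure D4:**
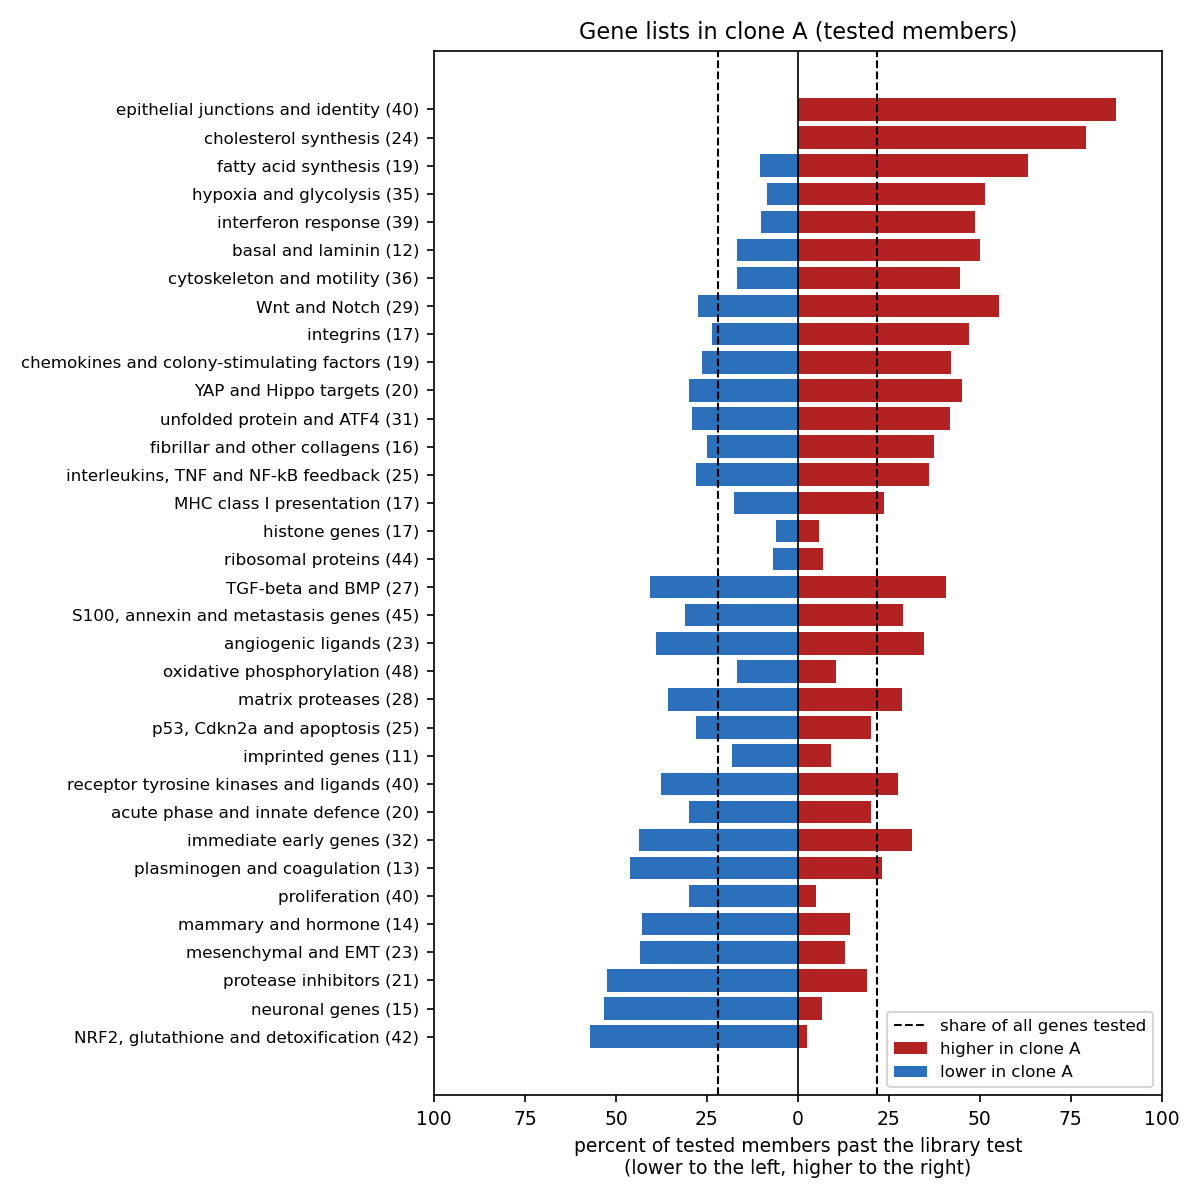
Share of tested members (number in brackets) past the library test for the gene lists with at least 10 tested members, higher in clone A to the right and lower to the left, with dashed lines at the shares over all genes (21.8% and 21.9%). Epithelial and cholesterol genes reach farthest to the right, and NRF2 and neuronal genes farthest to the left.

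Mammary and hormone genes were lower in 6 (42.9%) and higher in 2 (14.3%) of 14 at the library test. Over all genes 21.9% were lower and 21.8% higher. The growth hormone receptor gene Ghr had 762 and 599 normalized counts in clone A, against 641 in clone S to 3210.2 in clone B with a median of 1502 (-1.02 ± 0.09, limma adjusted p = 8.91e-11 at the library test). The luminal transcription factor Gata3 was lower (-0.65 ± 0.11, limma adjusted p = 6.95e-06) and Foxa1 was higher (0.61 ± 0.10, limma adjusted p = 3.22e-06). Several lists stayed near or below the background. Of 44 ribosomal protein genes 3 were higher and 3 lower, of 48 oxidative phosphorylation genes 5 were higher and 8 lower, and of 17 histone genes 1 was higher and 1 lower. TGF-beta and BMP genes did not belong to these lists. Of 27, 11 were higher and 11 lower, 40.7% each, so that both shares were above the background. Of the 896 tested genes on the 39 lists, 289 were higher and 234 lower at the library test. Over all 13637 genes, 2969 (21.8%) were higher and 2981 (21.9%) lower, and the pooled count is not read as a result.

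A few genes were present in most clones and without a read in clone A. Gem, a small GTPase that inhibits calcium channels, had 0 counts in both libraries of clone A, against 0.612 in clone L to 222 in clone S with a median of 59.7 (-1.68 ± 0.14, limma adjusted p = 4.01e-12 at the library test). Peli2, a ubiquitin ligase of Toll-like receptor signalling, had 0 in both, against 0.567 in clone L to 411 in clone O with a median of 99.8 (-1.91 ± 0.12, limma adjusted p = 5.54e-15). Slc27a6, a fatty acid transporter, had 0 in both, against 1.05 in clone S to 244 in clone M with a median of 50.4 (-1.51 ± 0.12, limma adjusted p = 1.49e-12). None of the 3 passed with 1 value per clone, and clones L or S were also near 0. A count of 0 over both libraries allows up to 1.64 normalized counts, which covers counting error only, so the median of the others was at least 36.4-fold higher for Gem, 60.8-fold for Peli2 and 30.7-fold for Slc27a6. In the reverse case, 8 genes reached 50 in clone A where the median of the others was under 3. Beside Postn and Asb2 these included Atp8b1, a phospholipid flippase, at 183 and 162 in clone A, against 0 in clone B to 93.9 in clone L with a median of 0.997 (2.26 ± 0.10, limma adjusted p = 2.00e-18). The epithelial transcription factor Ehf had 54.7 and 45.7 in clone A, against a median of 1.12 and up to 3583 in clone G (1.01 ± 0.11, limma adjusted p = 3.77e-09).

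Differences were unevenly placed along the genome. RefSeq positions (GRCm38.p6, the build mm10) were found for 13561 of the 13637 genes. Chromosome 11 had the highest median difference in clone A, 0.18 over 1120 genes, with 470 genes higher (42.0%) and 97 lower (8.66%) at the library test. Both libraries gave this value, 0.17 and 0.21. The other clones ran from -0.26 in clone J to 0.21 in clone G for that chromosome, and 1 of them was above clone A. Chromosome 7 had the lowest median, -0.15 over 1012 genes, with 121 genes higher (12.0%) and 359 lower (35.5%), and 1 other clone, N, was lower at -0.17. Chromosome 8 followed chromosome 11 at 0.15 over 728 genes, where clone G stood at -0.58. Both libraries of clone A lay above all 44 others for 67 genes of chromosome 11 (5.98%), against 2.05% over all genes, and below all 44 for 47 genes of chromosome 7 (4.64%), against 1.39%. Among the named higher genes, Foxj1, Smtnl2, Fam171a2, Rac3 and Wnt9a are on chromosome 11. Among the named lower genes, Emp3, Ccdc114, Zfp715, Sepw1, Tmem126a and Prkrir are on chromosome 7. The named genes were chosen because clone A was extreme in them, so their places are not read as a result.

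Runs of 61 neighbouring tested genes showed where along a chromosome the shift was widest. On chromosome 11 it was from 115163341 to 117782193, with a median of 0.35 in clone A against -0.46 to 0.19 in the others, and 40 of the 61 genes were higher at the library test and 3 lower. On chromosome 8 it was from 70131327 to 71729330, with a median of 0.32 against -0.57 to 0.18, and 34 genes were higher and 3 lower. The lowest run lay on chromosome 9 from 31029720 to 43239816, with a median of -0.41 against -0.28 to 0.51, and 31 genes were lower and 5 higher. On chromosome 7 it lay from 106595549 to 119794058, with a median of -0.34 against -0.20 to 0.22, and 36 genes were lower and 6 higher. In these 4 runs clone A was beyond all 22 other clones. Runs were picked as the most extreme of each chromosome, so no test was made of them.

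**Figure D5:**
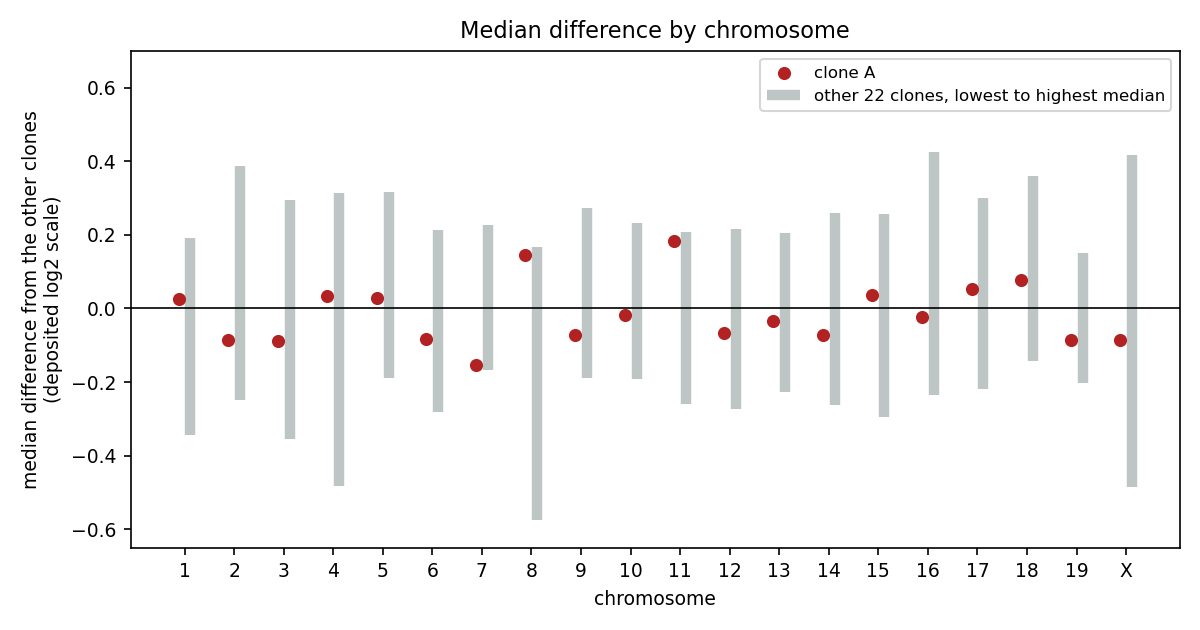
Median difference by chromosome on the deposited log2 scale, with clone A as red points and the lowest to highest median of the other 22 clones, each against the remaining clones, as grey bars. Clone A is near the top of the bar on chromosomes 11 and 8 and near the bottom on chromosome 7.

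The label of clone A was checked against markers of epithelial and other cells. The 7 epithelial markers, Krt8, Krt18, Epcam, Cdh1, Cldn3, Cldn4 and Krt19, summed to 72591 and 82164 normalized counts in clone A, against 14325 to 66023 with a median of 35726 in the others. The 4 leukocyte markers summed to 6.44 and 10.02, and the 3 adipocyte markers to 0 in both libraries. The 3 erythroid markers summed to 100.8 and 41.2 in clone A, against 30.5 to 83.4 in the others, all of it Alas2, with both hemoglobin genes at 0 reads in clone A. The 4 endothelial markers summed to 7.51 and 1.11. Of the macrophage markers, 5 were found and summed to 262 and 262 in clone A against 58.2 to 497 in the others. Of that sum, Csf1r made up 134 and 124 and Cd68, which differed by 0.17 ± 0.11, limma adjusted p = 0.222 at the library test, made up 128 and 131, and 2 of the 5 had no read in clone A. Whether cells of another kind added to the Csf1r of clone A was not tested. The 6 fibroblast markers summed to 313 and 286, against 119 to 1782 with a median of 409. Most of that sum was Pdgfra, at 310 and 270 in clone A against 117 to 1756 in the others.

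The levels of the genes named above were also looked up in the tumors and lung metastases. Since the named genes were chosen because clone A was extreme in them, no count over them is read as a result. Over all tested genes, all 4 specimens lay below both libraries of clone A for 3038 of 13637 and above both for 3815. Emp3 had 39.7 and 91.3 in clone A, against 783 and 714 in the tumors and 1312 and 975 in the lung metastases, each the mean of 2 libraries. Foxj1 had 246 and 368 in clone A, against 17.6 and 19.3 in the tumors and 9.98 and 13.2 in the lung metastases. Postn had 4017 and 3311 in clone A, against 52 and 80 in the tumors and 0.449 and 9.92 in the lung metastases. Emp3 was thus at the level of the other clones in the specimens, and Foxj1 and Postn were far below clone A. Fn1 was high in clone A at 69801 and 56443 and also in the specimens, with 58139 and 58883 in the tumors and 67860.4 and 102458 in the lung metastases. The labels do not say how far tumor cells were separated from host tissue, so these levels were not tested against those of clone A.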

How the data were processed

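RNA from each library was purified on columns, treated with DNase, and amplified from 100 ng of total RNA with NuGEN Ovation kits, sonicated and read at 76 bases on a HiSeq instrument, per the labels' protocols. The authors used Bowtie2, HTSeq and DESeq with build mm10, per the submitters' processing notes. Versions, settings and use of strand were not given in the sources used here. The authors deposited 1 table of log2 values for 23481 rows and 54 libraries. Read from the values, these are variance-stabilised, with a gene without reads at 5.03. Inverting that curve gave normalized counts, and dividing by the value of 1 read gave whole reads, within 0.01, for 100% of values. Low genes differ less on this scale than in their counts. Of the rows, 27 hold symbols turned into dates and are not named, and 1316 had no read.

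Genes with at least 10 normalized counts in at least 2 clone libraries were tested. Both tests used limma 3.58.1 in R 4.3.3 on the deposited values, two-sided, with a variance trend and Benjamini-Hochberg adjustment over all 13637 genes at 0.05. The first used 1 value per clone, clone A against the other 22, with the SE between clones. The library test used all 46 clone libraries with a mean per clone, clone A against the mean of the other 22 clone means, with the SE between libraries. Both tests were run on simulated data. With 1 value per clone, 32 of 67 genes changed by 1, 64 of 67 changed by 2 and 65 of 66 changed by 4 were called. The library test called 66 of 67, 67 of 67 and 66 of 66. Its simulated clones all had the same mean, unlike these data. Each test called 6 of 13437 unchanged genes.

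Named genes were, in each direction, those past the first test with at least 50 normalized counts, filled to 15 in order of p from genes past the library test and outside all 44 other libraries. The members, gene lists and tests were chosen with earlier results of these data known. Lists have no test of their own. Riken and predicted loci were counted and not named. The library titles name no batch, and none was tested for. Alternatives were another log scale, a trimmed-mean scaling, other filters and variance models, clones or libraries left out, and the library letter as a block. Tables were made in Python 3.11.15 with pandas 2.3.3. Counts carry no molecular identifiers, so the limit given for a count of 0 covers counting error only.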

Additional observations from a re-analysis of the deposited data

Results flagged for a closer look

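The protease inhibitors Serpine2 and Slpi were both lower in clone A at the library test, and the lung metastases, which enter no comparison here, held them at levels above those of any clone. Serpine2 had 133 and 104 normalized counts in clone A, against 11662 to 19536 in the 4 lung metastasis libraries, where the highest library of any clone had 9694. Slpi had 90.1 and 168 in clone A, against 16030.1 to 25255 in the lung metastases, where the highest clone library had 12048. The share of host tissue in the metastases was not tested.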

How the results depend on the processing

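With 1 value per clone, the 20 genes called became 11 on log2(normalized count + 1), 12 on that scale with trimmed-mean scaling as well, 68 without a filter and 9 with a filter at 50 normalized counts. Leaving out a library of clone A or 1 other clone gave 16 to 28. Fewer genes tested is part of the filter's effect, and for the other settings the cause was not tested. The 5950 genes of the library test became 606 where a difference of at least 1 was required, and 3867 to 4854 with 1 library of clone A, which is then assumed to vary like the others. The 470 genes outside all 44 other libraries became 1401 when clone means were ranked, and 816 to 1235 with 1 library of clone A, since each of these asks less of a gene. The other 43 recomputed counts stayed within 1.5 times. Of 192 recomputed values of 32 named genes with 1 value per clone, 161 kept their side of the threshold, 14 gained and 17 lost the call, and 0 changed sign. Library letters did not pair the libraries consistently. The differences between libraries A and B correlated between clones from -0.50 to 0.64 (median 0.08, with 113 of 253 pairs of clones over 0.1). For clone A these correlations ran from -0.49 to 0.45. A technical difference shared by some libraries was not tested. With the letter as a replicate block in the library test 6196 genes were called, and the 32 named genes kept their side of that test's threshold.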
